A study of Mus musculus with 12 samples.

Results

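The change that Myc knockdown made to the early response to doxycycline (dox) was measured across all genes as an interaction, the dox change in Myc-depleted fibroblasts minus the dox change in fibroblasts given a control siRNA. Each dox change was the difference, on the log2(RPKM + 1) scale, between cells kept with dox for 2 days and cells without dox. RPKM is the number of reads per kilobase of gene, scaled to the library's depth. A negative interaction means that dox raised a gene less, or lowered it more, in siMyc than in siControl cells, and a positive interaction means the opposite. The comparison used 8 of the 12 RNA-seq libraries of the series, 2 in each of 4 groups, which were siMyc with dox, siMyc without dox, siControl with dox and siControl without dox. All were total RNA of mouse embryonic fibroblasts of the secondary line that the labels call 2o 1B, whose introduced reprogramming factors are induced by dox, so the controls carry these factors as well. siMyc is directed against c-Myc (gene Myc). Whether a pool or individual siRNAs was used for a given library is not tied to it in the labels, which mention both. The other 4 libraries received an siRNA against Gcn5 (gene Kat2a) and entered the shared estimate of the spread and the descriptions below that name them.

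Myc is a basic helix-loop-helix transcription factor that binds DNA as a dimer with Max, with CACGTG, the canonical E-box, as its preferred site. It is known for raising the output of genes for ribosomes, nucleotides, splicing and cell division in growing cells, and it is one of the factors used to reprogram fibroblasts. In the first days of reprogramming, fibroblasts are known to reduce mesenchymal genes, to divide faster and to switch on epithelial genes, before pluripotency genes of the cell itself are active.

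Gene reads ran from 65.5 M to 188 M per library, and both extremes were siMyc libraries with dox, replicate 1 and replicate 2. Replicates correlated at Spearman 0.990 to 0.997 across genes. The labels do not say whether replicates came from different cultures, and the p-values therefore reflect only how far these libraries differ, which may be technical. From a total of 23284 genes, 13175 were tested, which were those that reached an RPKM of 1 in 2 libraries or more. A gene was called where its limma p-value, adjusted over all tested genes by Benjamini-Hochberg, was under 0.05, and "lower" and "higher" below refer to the interaction. Of 1130 distinct members of 41 gene lists 999 were tested. RPKM is relative to each library's total, and fewer cells of a type cannot be told apart from less RNA per cell. Fibroblast markers were present in every library, and all 13 were above 0 in each. Their summed level was 7799 and 7697 RPKM in siMyc cells with dox and 11625 and 11623 in siMyc cells without, against 4144 and 3693 in siControl cells with dox and 12572 and 12437 in siControl cells without.

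The targeted gene was lower in both siMyc groups. Myc was at 16.9 and 26.2 RPKM in siMyc cells with dox and at 4.57 and 4.80 in siMyc cells without, against 174 and 155 in siControl cells with dox and 21.7 and 17.6 in siControl cells without. It rose with dox in both arms, by log2 1.96 in siMyc and 3.01 in siControl, which gave an interaction of −1.05 (SE 0.28, adjusted p = 0.0090). These values do not separate the introduced Myc from the cell's own gene, and the same holds for the other reprogramming factors. Pou5f1 (Oct4) had 97.9 and 122 RPKM in siMyc cells with dox against 1.05 and 1.20 without, and 288 and 249 RPKM in siControl cells with dox against 1.30 and 0.942 without, an interaction of −1.29 (SE 0.24, adjusted p = 0.0013). Sox2 averaged 16.9 ± 2.2 RPKM in siMyc and 32.1 ± 4.3 in siControl cells with dox (SD, n = 2 each), at an interaction of −0.84 (adjusted p = 0.044), a call lost in 13 of 17 alternatives. Klf4 averaged 144 ± 4.6 RPKM in siMyc and 105 ± 15 in siControl cells with dox, and its interaction of −0.06 (95% confidence interval −0.54 to 0.41) did not pass the test. In siGcn5 cells Pou5f1 and Sox2 rose with dox by log2 5.55 and 3.75. Their rises were 5.70 and 3.80 in siMyc and 6.99 and 4.65 in siControl. Myc and Klf4 rose by log2 3.67 and 3.18 in siGcn5 cells.

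Dox moved fewer genes in the siMyc arm than in siControl, and the same held for siGcn5. With dox 28.9% of tested genes rose and 15.9% fell in siMyc cells, against 46.1% that rose and 27.9% that fell in siControl cells. In siGcn5 cells 36% rose and 22.4% fell, so a smaller response was not particular to siMyc. The arms share no library. Of the 3804 genes that rose in siMyc, 67.5% also rose in siControl, and these were 42.2% of the 6075 that rose in siControl. Among the 2095 that fell in siMyc, 77.0% also fell in siControl, which was 43.9% of the 3676 that fell there. Over all tested genes the dox changes had an SD of 0.73 in siMyc and 0.86 in siControl, and Pearson's r between the arms was 0.65 across genes, which are not independent replicates. Dox responses in opposite directions were also found, with 395 genes up in siMyc and down in siControl, and 122 down in siMyc and up in siControl.

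The interaction itself passed the test at 7129 of 13175 genes, 54.1%. It was lower in siMyc at 3862 genes, 29.3% of those tested, and higher at 3267, 24.8%. All list counts below are to be read beside these shares. Interactions of at least 1 log2 unit were nearly balanced, 844 lower and 895 higher, and those of at least 2 were not, with 22 lower and 89 higher. This scale understates changes of low genes. The counts by size were not repeated in the alternatives, so the imbalance may depend on the scale. Among the 3862 genes called lower, 3861 had all 4 differences between siMyc libraries with and without dox below all 4 siControl differences. Of the 3267 called higher, 3266 had them all above. The calls rest on these same libraries, so this separation is no separate support. Its share over all tested genes is not given here. The median interaction over all tested genes was −0.03. Median-ratio scaling, another way to put libraries on 1 scale, moved it to 0.05 and moved the share of calls that were lower to 44.7%, against 54.2% with the RPKM as deposited. The siMyc libraries with dox differed from each other, and replicate 2 was above replicate 1 at 70.9% of genes called lower and 26.2% of genes called higher, against 44.8% of all tested genes. Counts without replicate 1 or 2 of that group stayed within 1.5 times of those given. For 3073 genes, 23.3%, the 95% confidence interval of the interaction lay within 0.5 log2 units of 0 on both sides, and 663 of these rose with dox in both arms with no call for the interaction.

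**Figure D1:**
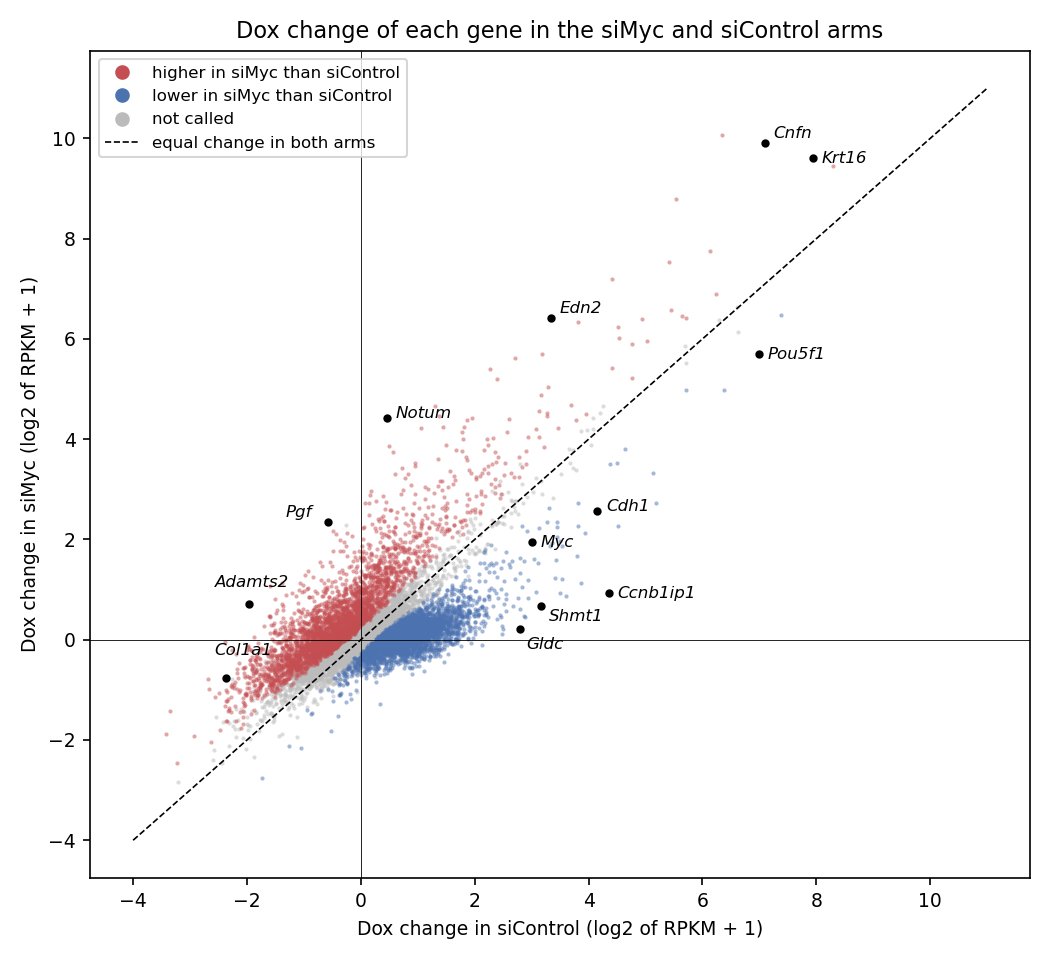
Dox change of each of the 13175 tested genes in siMyc cells (vertical axis) and siControl cells (horizontal axis), both in log2(RPKM + 1), 1 point per gene, with genes called higher (3267) and lower (3862) in siMyc coloured and equal change drawn as a dashed line. Genes called lower lie below the line and genes called higher above it, Pgf and Adamts2 lie at the upper left, and Cnfn and Krt16 are far up in both arms.

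Genes were also grouped by the dox response of the siGcn5 libraries, which enter neither side of the interaction. Of the 4742 genes that rose with dox in siGcn5 cells, 36% of those tested, 59.5% had a lower and 13.1% a higher dox change in siMyc than in siControl. Their median dox change was 0.25 in siMyc and 0.79 in siControl, with a median interaction of −0.48. Of the 2951 genes that fell with dox in siGcn5 cells, 22.4% of those tested, 3.59% were lower and 50.9% higher, with median dox changes of −0.22 in siMyc and −0.61 in siControl and a median interaction of 0.39. The 5482 genes not called for dox in siGcn5 cells were lower in 17.0% and higher in 20.9% of cases, with a median interaction of 0.01. Both classes of dox-responsive genes thus moved less with dox in siMyc than in siControl cells at the median. Among the 929 genes up by at least 1 log2 unit in siGcn5 cells the median interaction was −0.83, and 20.5% of these genes were higher in siMyc.

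**Figure D2:**
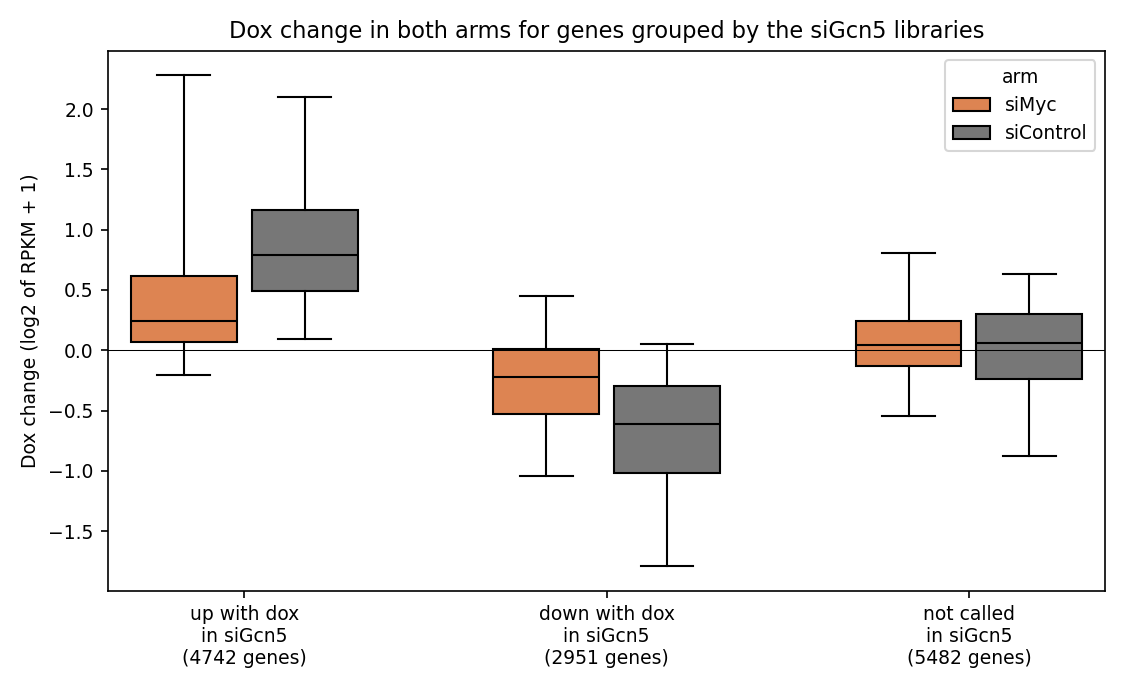
Dox change in siMyc (left box of each pair) and siControl cells (right box), in log2(RPKM + 1), for genes grouped by their dox response in the siGcn5 libraries. Lines are medians, boxes are quartiles and whiskers run from the 5th to the 95th percentile; in the first pair the medians are 0.25 in siMyc and 0.79 in siControl, and in the second −0.22 in siMyc and −0.61 in siControl.

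All 62 tested ribosome biogenesis factors were lower, with a median interaction of −1.11 and median dox changes of 0.37 in siMyc and 1.44 in siControl. Nolc1, a nucleolar chaperone of small nucleolar ribonucleoproteins, had 20.8 and 30.6 RPKM in siMyc cells with dox against 17.5 and 18.3 without, and 122 and 133 RPKM in siControl cells with dox against 30.3 and 29.3 without. Both siControl libraries with dox lay far above the other 6, and the interaction was −1.59 (SE 0.22, adjusted p = 0.00027). The nucleolar growth protein Lyar averaged 19.4 ± 6.0 RPKM in siMyc cells with dox and 13.0 ± 0.95 without, against 113 ± 12 in siControl cells with dox and 23.8 ± 0.36 without (SD, n = 2), an interaction of −1.68. RNA polymerase I, which transcribes ribosomal RNA, had 12 of 13 tested genes lower and none higher (median −0.84). Its catalytic subunit gene Polr1b was at 3.72 and 6.50 RPKM in siMyc cells with dox against 3.09 and 3.65 without, and at 31.3 and 32.2 in siControl cells with dox against 6.29 and 5.67 without (interaction −1.79, SE 0.26, adjusted p = 0.00038). The rise of Polr1b passed the test in siControl and not in siMyc (log2 0.45, adjusted p = 0.074). Polr1e and the largest subunit gene Polr1a were at −1.35 and −1.19. RNA polymerase III, which makes transfer RNAs and 5S ribosomal RNA, was lower at 14 of 22 genes and higher at none (median −0.55). Polr3g, a subunit known to be high in pluripotent cells, rose in both arms, by log2 0.99 in siMyc and 2.25 in siControl.

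The ribosomal proteins themselves moved less. Of 71 cytosolic ribosomal protein genes 26 were lower and none higher, 36.6% against 29.3% of all tested genes, at a median interaction of −0.33. Rpl7a, a large subunit protein, had 692 and 823 RPKM in siMyc cells with dox against 646 and 683 without, and 1958 and 1929 RPKM in siControl cells with dox against 1048 and 1096 without (interaction −0.67, SE 0.15, adjusted p = 0.0034). All 71 interactions were below 0, but the number that passed varied, with 6 under median-ratio scaling, 14 under quantile normalization, 16 with no filter on low values, 8 without siMyc replicate 1 with dox, 41 without siMyc replicate 2 with dox and 7 without siMyc replicate 2 without dox. It was 16 and 11 without siControl replicate 1 and 2 with dox, and 10 and 16 without siControl replicate 1 and 2 without dox. Reads of these genes may be shared with their many pseudogene copies, so their values are uncertain. Mitochondrial ribosomal proteins were lower at 57 of 69 genes and higher at none (median −0.63). Mrpl47 had 16.3 and 17.9 RPKM in siMyc cells with dox against 15.2 and 12.7 without, and 45.6 and 47.9 RPKM in siControl cells with dox against 15.4 and 15.4 without (interaction −1.26, SE 0.14, adjusted p = 8.4e-05).

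Translation factors and chaperones followed the same direction. Of 40 translation initiation factors 28 were lower and none higher (median −0.60), among them Eif2b1, a subunit of the exchange factor that recharges eIF2, at −0.99. All 10 chaperonin genes were lower (median −0.81). The mitochondrial chaperonin Hspd1 had 156 and 200 RPKM in siMyc cells with dox against 142 and 146 without, and 692 and 793 RPKM in siControl cells with dox against 241 and 221 without, an interaction of −1.39 (SE 0.18, adjusted p = 0.00021). Its rise was called in siControl only (siMyc log2 0.29, adjusted p = 0.088), and the difference between arms is the interaction given. The cytosolic aminoacyl-tRNA synthetases, which charge transfer RNAs, went both ways, with 11 of 20 lower (55%) and 3 higher (15%), at a median of −0.38. Over all tested genes these shares were 29.3% and 24.8%. Farsa, Vars and Kars, for phenylalanine, valine and lysine, were at −0.91, −0.90 and −0.86, while the 3 higher genes were Aars, Cars and Sars, for alanine, cysteine and serine. These 3 were named after their values were seen, and 1 was called higher without siMyc replicate 2 without dox or without siControl replicate 2 with dox.

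The splicing machinery was lower as a group. Of 61 core spliceosome genes 56 were lower and none higher, with a median interaction of −0.79 and median dox changes of 0.10 in siMyc and 0.86 in siControl. Snrpg, an Sm-ring protein of the small nuclear ribonucleoproteins, had 100.4 and 129.6 RPKM in siMyc cells with dox against 119 and 118 without, and 412 and 437 RPKM in siControl cells with dox against 161 and 162 without. The siMyc groups overlapped in their values and the siControl groups were far apart (interaction −1.44, SE 0.19, adjusted p = 0.00024). Isy1, a component of the catalytic spliceosome, was at −1.42 and Lsm3, part of the U6 ring, at −1.36. Of 36 hnRNP and SR proteins, which bind pre-mRNA and set splice site choice, 31 were lower and none higher (median −0.63). Hnrnpa1 had 139 and 179 RPKM in siMyc cells with dox against 157 and 175 without, and 554 and 604 RPKM in siControl cells with dox against 274 and 280 without (interaction −1.13, SE 0.20, adjusted p = 0.00098). Hnrnpa2b1 was at −1.05. The arginine methyltransferases and their partners, which methylate Sm proteins and other RNA-binding proteins, were lower at 9 of 10 genes (median −0.91). Prmt5 had 18.6 and 23.9 RPKM in siMyc cells with dox against 20.1 and 20.2 without, and 81.2 and 83.4 RPKM in siControl cells with dox against 29.4 and 28.2 without (interaction −1.42, SE 0.16, adjusted p = 8.4e-05). Clns1a, the Prmt5 partner that carries Sm proteins, and Prmt7 were both at −1.06.

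Tissue-specific splicing regulators did not share that pattern. Of 22 tested, 7 were lower and 6 higher, at a median of 0.07. These shares, 31.8% and 27.3%, were near the 29.3% and 24.8% of all tested genes. With a mean RPKM of at least 5 the higher count was 3. Low values or a missing symbol left 14 of the 36 members untested. Elavl2, an RNA-binding protein known from neurons, averaged 1.45 ± 0.32 RPKM in siMyc cells with dox and 1.17 ± 0.12 without, against 7.09 ± 0.87 in siControl cells with dox and 0.858 ± 0.079 without (interaction −1.95, SE 0.26, adjusted p = 0.00022). Celf5, of the CUG-binding family, went the other way, with 5.66 ± 1.7 RPKM in siMyc cells with dox and 0.866 ± 0.0099 without, against 2.34 ± 0.56 in siControl cells with dox and 1.18 ± 0.0042 without (interaction 1.21, adjusted p = 0.0034). Rbm38, an RNA-binding p53 target, rose in both arms, by log2 1.44 in siMyc and 2.46 in siControl.

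Nucleotide synthesis was among the groups with the largest median. Of 27 purine and pyrimidine genes 21 were lower and 1 higher (median −1.13). Gart, a trifunctional enzyme of purine synthesis, had 20.2 and 29.9 RPKM in siMyc cells with dox against 21.7 and 19.7 without, and 137 and 146 RPKM in siControl cells with dox against 37.4 and 34.1 without (interaction −1.71, SE 0.23, adjusted p = 0.00022). Dut, which removes dUTP, was at −1.997. The gene that went higher, Adssl1, the muscle form of adenylosuccinate synthase, rose in siMyc (log2 0.60) and fell in siControl (log2 −1.37). Serine, glycine and folate enzymes were lower at 12 of 20 genes and higher at 1 (median −0.59). Shmt1, the cytosolic serine hydroxymethyltransferase, had 3.64 and 7.61 RPKM in siMyc cells with dox against 2.89 and 3.05 without, and 60.0 and 66.1 RPKM in siControl cells with dox against 6.76 and 5.57 without (interaction −2.49, SE 0.38, adjusted p = 0.00044). The glycine decarboxylase Gldc had 0.276 and 0.553 RPKM in siMyc cells with dox and 0.238 and 0.194 without, against 8.75 and 7.48 in siControl cells with dox and 0.320 and 0.291 without (interaction −2.59, SE 0.16, adjusted p = 4.9e-06). Mitochondrial Aldh1l2, which oxidises formyl-tetrahydrofolate, was at 1.68, with a fall in siControl (log2 −2.13) and a value in siMyc that did not pass (log2 −0.46, adjusted p = 0.072). In arginine, polyamine, creatine and methionine metabolism 14 of 20 genes were lower and 1 higher (median −0.65). The first and the last enzyme of creatine synthesis differed in sign. Gatm was at 0.689 ± 0.12 RPKM in siMyc cells with dox and 0.672 ± 0.093 without, against 6.53 ± 0.58 in siControl cells with dox and 1.05 ± 0.14 without (interaction −1.86). Gamt was at 1.79 ± 0.50 RPKM in siMyc cells with dox and 1.48 ± 0.49 without, against 4.92 ± 0.45 in siControl cells with dox and 11.1 ± 1.2 without, so its interaction of 1.21 came with levels that were low in siMyc already without dox.

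Promoters that hold the canonical Myc-Max site are printed for 4 called genes, 1 from each of 4 lists above, because this is the sequence through which Myc is known to bind. In each of those lists the gene with the most negative interaction among those with a CACGTG in its promoter was taken, which made Nle1, a factor of 60S ribosome maturation, 15th in its list, Impdh2, the rate-limiting enzyme of guanine nucleotide synthesis, 8th, Prpf3, of the U4/U6 ribonucleoprotein, 24th and Tyms, thymidylate synthase, 5th. Sequences are from RefSeq (GRCm38.p6), 250 bases before to 50 after the start, read 5′ to 3′ on the gene's strand, with CACGTG in capitals. Nle1 lies at chr11:82908346-82908645 on the minus strand with the site beginning 23 bases after the start, Impdh2 at chr9:108560186-108560485 on the plus strand with the site 110 bases before it, Prpf3 at chr3:95855836-95856135 on the minus strand at 12 bases after it, and Tyms at chr5:30073576-30073875 on the minus strand at 61 bases before it.
Nle1: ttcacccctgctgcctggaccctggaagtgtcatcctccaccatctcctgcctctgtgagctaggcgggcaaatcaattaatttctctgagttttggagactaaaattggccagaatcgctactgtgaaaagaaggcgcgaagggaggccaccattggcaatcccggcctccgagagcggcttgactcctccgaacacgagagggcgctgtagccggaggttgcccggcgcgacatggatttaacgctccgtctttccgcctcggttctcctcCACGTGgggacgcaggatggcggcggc
Impdh2: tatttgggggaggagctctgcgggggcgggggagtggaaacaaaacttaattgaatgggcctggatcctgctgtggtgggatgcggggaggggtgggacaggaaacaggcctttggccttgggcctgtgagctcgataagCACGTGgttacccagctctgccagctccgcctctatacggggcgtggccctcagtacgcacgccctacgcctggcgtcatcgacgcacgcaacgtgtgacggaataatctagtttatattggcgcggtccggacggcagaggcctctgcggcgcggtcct
Prpf3: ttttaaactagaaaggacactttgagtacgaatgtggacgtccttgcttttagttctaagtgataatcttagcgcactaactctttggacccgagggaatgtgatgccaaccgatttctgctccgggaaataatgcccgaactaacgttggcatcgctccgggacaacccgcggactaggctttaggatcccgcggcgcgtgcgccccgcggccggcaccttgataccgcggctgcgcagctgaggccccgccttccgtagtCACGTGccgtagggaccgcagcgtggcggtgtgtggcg
Tyms: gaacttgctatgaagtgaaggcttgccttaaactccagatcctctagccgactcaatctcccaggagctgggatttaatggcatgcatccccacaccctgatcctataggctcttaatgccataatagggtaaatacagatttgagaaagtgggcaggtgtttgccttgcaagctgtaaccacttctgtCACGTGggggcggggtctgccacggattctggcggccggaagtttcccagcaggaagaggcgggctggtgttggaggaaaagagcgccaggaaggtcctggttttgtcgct

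The rule that chose these 4 genes used their interactions, so their direction is no result. Impdh2 had 75.8 and 86.5 RPKM in siMyc cells with dox against 76.1 and 74.0 without, and 296 and 299 RPKM in siControl cells with dox against 112 and 107 without, an interaction of −1.32. Nle1 averaged 9.12 ± 2.4 RPKM in siMyc cells with dox and 6.07 ± 0.14 without, against 36.0 ± 0.65 in siControl cells with dox and 10.3 ± 1.2 without (interaction −1.22). Prpf3 and Tyms were at −0.84 and −0.98. The motif searched was CACGTG, which reads the same on both strands, and 7.24% of 27025 promoters of this length, 1 per gene, hold it. Of the 10076 tested genes with a promoter in the table, 10.4% hold it. Among tested list members with a promoter in the table it was found in 11 of 53 ribosome biogenesis factors (20.8%), 4 of 9 arginine methyltransferase genes (44.4%), 6 of 34 hnRNP and SR proteins (17.6%), 4 of 25 purine and pyrimidine genes (16%), 3 of 21 glycolysis genes (14.3%), 5 of 39 DNA replication genes (12.8%) and 3 of 26 stress genes (11.5%). In the serine, glycine and folate list it was found in 1 of 17 (5.88%), which is Tyms. It was found in 5 of 60 mitochondrial ribosomal proteins (8.33%) and 3 of 36 mitosis genes (8.33%), and in none of 19 collagens, 20 contractile genes or 23 cornified envelope genes. Other lists had it in 4 of 17 Myc network genes (23.5%), 6 of 32 translation initiation factors (18.75%) and 2 of 13 polymerase I genes (15.4%). It was also in 3 of 20 SAGA genes (15%), 1 of 9 chaperonins (11.1%) and none of 7 kinase inhibitors. A match is a description of these letters in this window and not a bound site. Only 76.5% of all tested genes had a promoter in the table, so the 10.4% and shares by call cover only those matched. Among matched genes CACGTG was in 11.6% of those called lower, 8.98% of those called higher and 10.35% of those not called. The difference between these shares was not tested. Some lists were matched less fully, and their shares are less certain. The spliceosome list (78.7% matched) had it in 4 of 48 (8.33%) and p53 targets (76.9%) in 6 of 20 (30%). Cytosolic ribosomal proteins (73.2%) had it in 5 of 52 (9.62%), sterol genes (69.6%) in 3 of 16 (18.75%) and epithelial junction genes (39.1%) in 2 of 9 (22.2%). The lists printed are only some of all lists.

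Genes of the cell cycle were lower as well, and their siMyc dox changes lay near or under 0. Of 47 DNA replication genes 45 were lower and none higher (median −1.21), with median dox changes of −0.07 in siMyc and 1.07 in siControl. Pold2, a subunit of DNA polymerase delta, had 10.8 and 14.2 RPKM in siMyc cells with dox against 11.2 and 9.33 without, and 72.4 and 69.1 RPKM in siControl cells with dox against 17.7 and 16.3 without (interaction −1.75, SE 0.25, adjusted p = 0.00037). Mcm10, which helps to start replication forks, was at −1.83 and Rfc5, of the clamp loader, at −1.72. Mitosis and kinetochore genes were lower at 36 of 42 and higher at none (median −1.13), with median dox changes of −0.31 in siMyc and 0.84 in siControl. The chromosomal passenger kinase Aurkb had 5.60 and 7.31 RPKM in siMyc cells with dox against 9.86 and 7.87 without, and 25.0 and 27.1 RPKM in siControl cells with dox against 12.3 and 9.49 without (interaction −1.60, SE 0.40, adjusted p = 0.0075). The mitosis count was 16 without siControl replicate 2 with dox, 18 without siMyc replicate 1 with dox, 21 without siControl replicate 2 without dox, and 23 without siMyc replicate 2 without dox or with no filter on low values. Bub1b, of the spindle checkpoint, was at −1.60 (adjusted p = 0.019), a call lost without any of 3 single libraries (0.055 to 0.072).

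Of 8 tested cyclin-dependent kinase inhibitors 3 were higher (37.5%, against 24.8% of all tested genes) and none lower (median 0.13). Cdkn1c (p57) had 11.03 and 9.35 RPKM in siMyc cells with dox against 7.01 and 5.56 without, and 2.07 and 1.31 RPKM in siControl cells with dox against 4.04 and 3.45 without. It rose in siMyc and fell in siControl (interaction 1.45, SE 0.28, adjusted p = 0.0017). Cdkn2b (p15) fell in both arms, with 32.8 ± 1.7 RPKM in siMyc cells with dox and 48.4 ± 2.2 without, against 10.6 ± 1.2 in siControl cells with dox and 36.6 ± 0.33 without (interaction 1.15). Cdkn1a (p21) rose in both arms, at an interaction of 0.32 (adjusted p = 0.047). This call was lost when any 1 library was left out, with no filter on low values (adjusted p = 0.069) and under quantile normalization (0.128). Targets of p53 went both ways, 9 of 26 lower and 4 higher (median −0.16), against 29.3% lower and 24.8% higher among all tested genes. None was higher without siMyc replicate 1 with dox or siControl replicate 2 with dox, 1 without either siControl library without dox, and 2 without siMyc replicate 2 without dox.

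**Figure D3:**
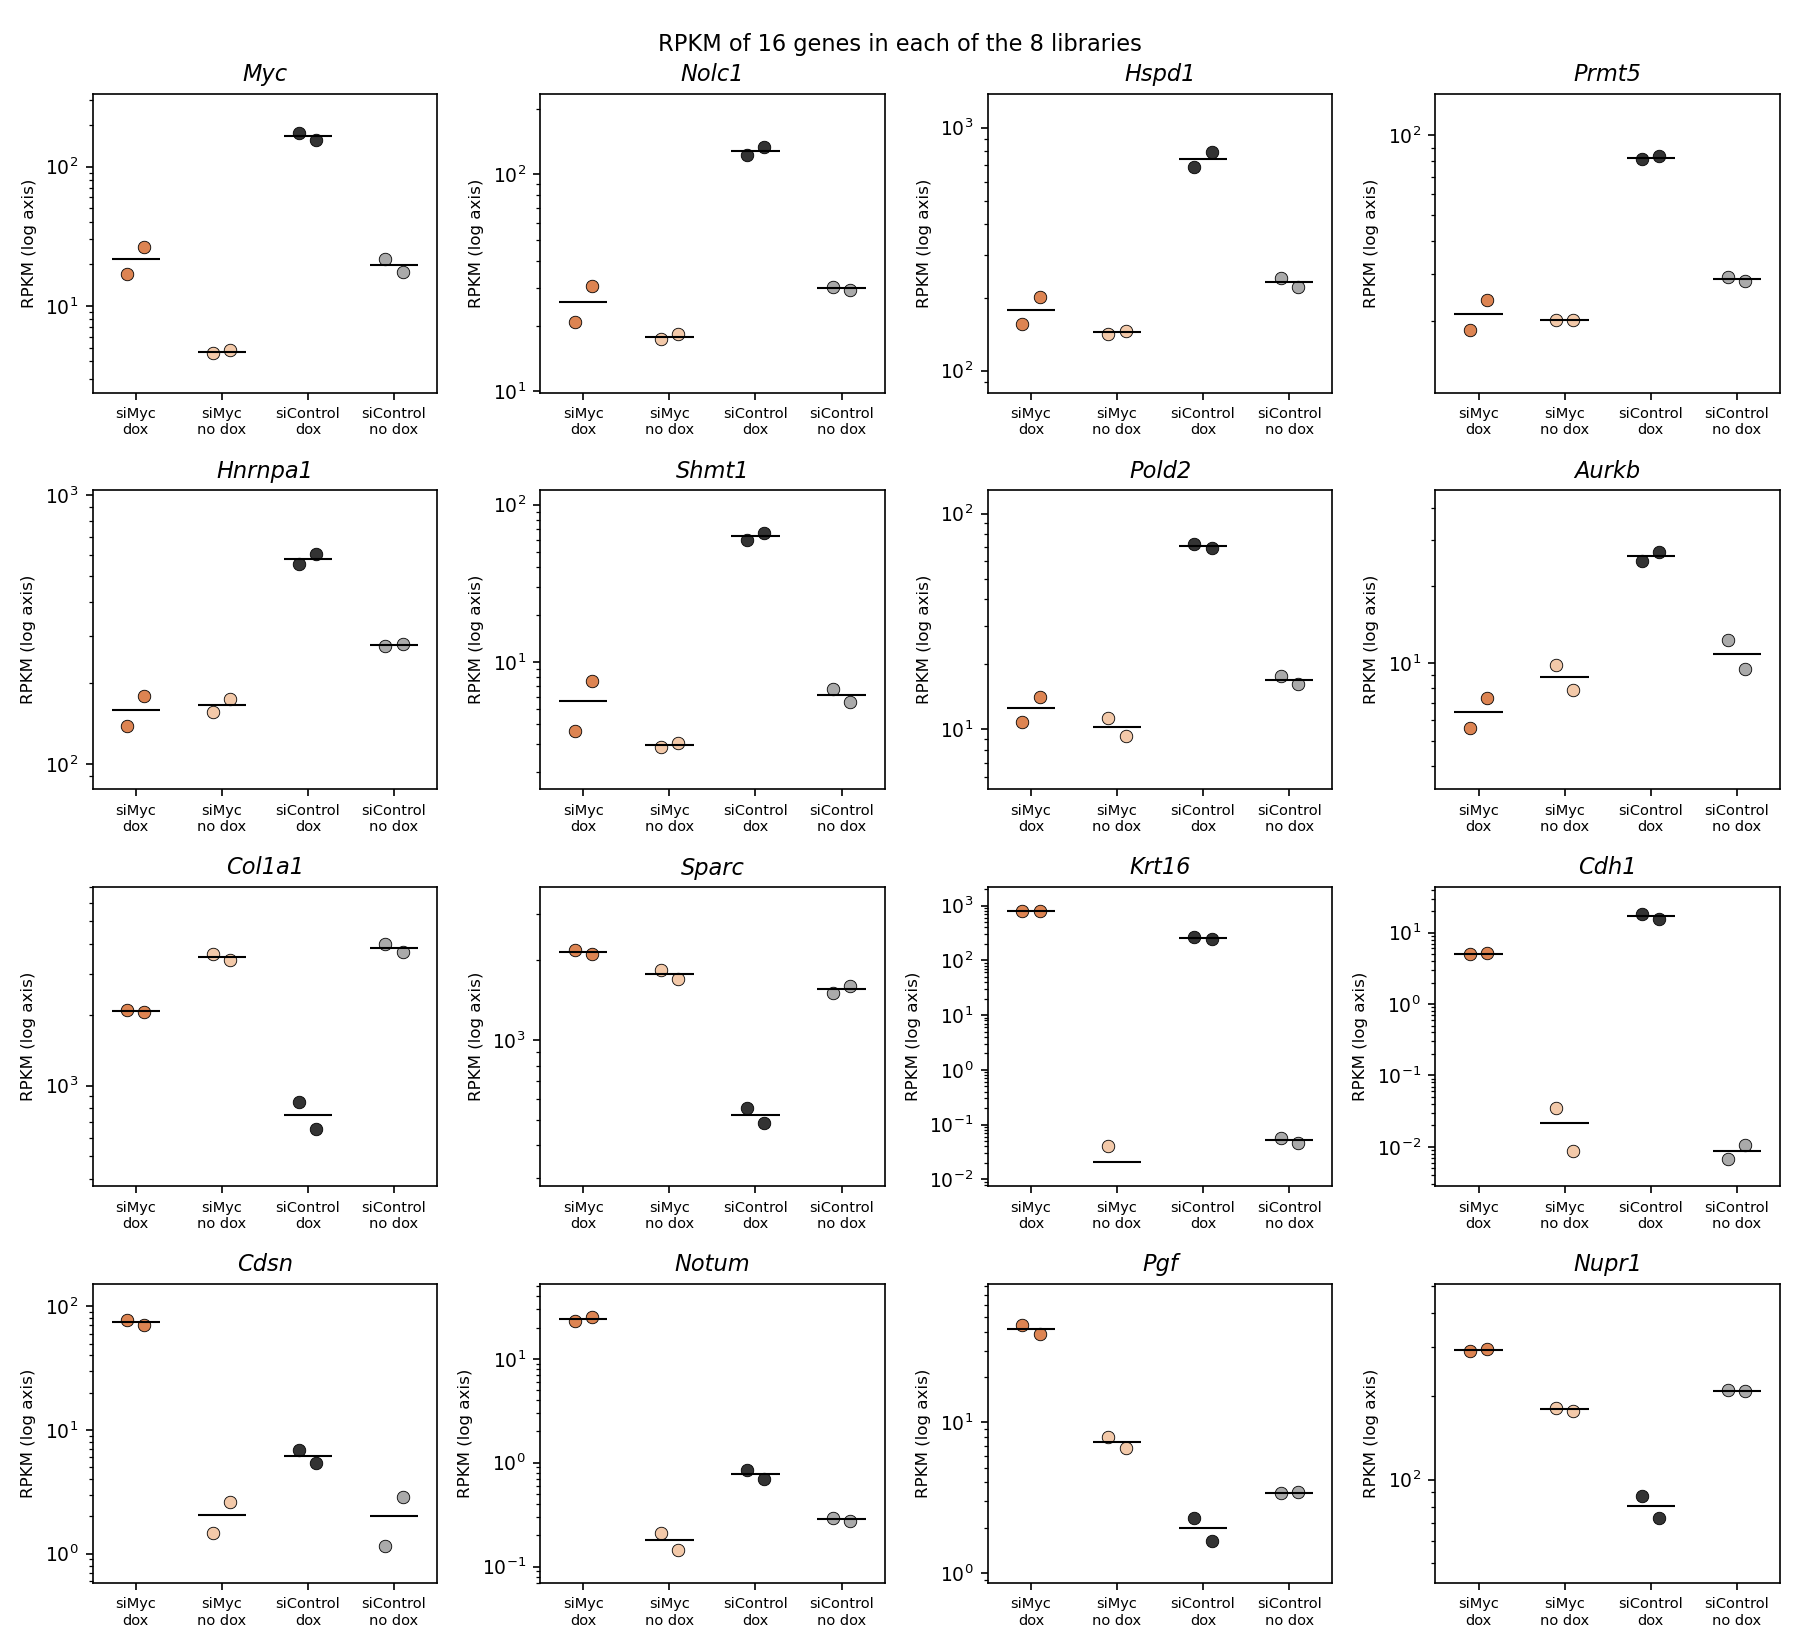
RPKM of 16 genes in each of the 8 libraries (log axis), 1 point per library and a bar at the mean of each group of 2; a Krt16 value of 0 in 1 siMyc library without dox cannot be drawn. For Nolc1, Hspd1, Prmt5, Hnrnpa1, Shmt1, Pold2 and Aurkb both siControl libraries with dox stand above the other 6, while Cdsn, Notum, Pgf and Nupr1 are highest in both siMyc libraries with dox.

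Genes of the fibroblast state fell less with dox in siMyc cells. Of 23 collagen genes 18 were higher and none lower (median 1.11), with median dox changes of −0.62 in siMyc and −1.58 in siControl. Col1a1, a chain of the main fibrillar collagen, had 2089 and 2068 RPKM in siMyc cells with dox against 3631 and 3425 without, and 849 and 654 RPKM in siControl cells with dox against 4004 and 3705 without. It fell in both arms and the groups without dox were close (interaction 1.61, SE 0.19, adjusted p = 0.00012). Col6a3, of the microfibrillar collagen VI, rose in siMyc, with 44.4 and 42.1 RPKM with dox against 27.6 and 32.0 without, and fell in siControl, with 18.01 and 15.3 RPKM with dox against 49.7 and 47.5 without (interaction 2.02, SE 0.21, adjusted p = 7.4e-05). Col18a1 was at 1.86. Matricellular and crosslinking genes were higher at 27 of 34 and lower at none (median 0.95). Sparc, a collagen-binding matrix protein, had 2192 and 2119 RPKM in siMyc cells with dox against 1838 and 1700 without, and 553 and 484 RPKM in siControl cells with dox against 1509 and 1598 without (interaction 1.87, SE 0.13, adjusted p = 1.0e-05). Loxl4, a lysyl oxidase, rose in siMyc (log2 1.64) and did not pass in siControl (log2 −0.11, adjusted p = 0.58). Fbln2, a fibulin of elastic and basement membranes, fell in both arms, by log2 −0.58 in siMyc and −2.17 in siControl.

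Contractile and actin genes were higher at 22 of 23 and lower at none (median 0.95). Csrp1, a LIM protein of the actin cytoskeleton, had 399.6 and 398 RPKM in siMyc cells with dox against 391 and 421 without, and 146 and 129.9 RPKM in siControl cells with dox against 395 and 400.5 without (interaction 1.50, SE 0.13, adjusted p = 3.2e-05). Only the siControl libraries with dox stood apart. Actg2, smooth muscle gamma-actin, and Cnn2, a calponin, were at 1.54 and 1.30. Mesenchymal transcription factors and adhesion genes were higher at 7 of 17 and lower at none (median 0.39). Prrx2, a mesenchymal homeobox factor, averaged 64.6 ± 4.1 RPKM in siMyc cells with dox and 97.0 ± 5.1 without, against 22.5 ± 5.9 in siControl cells with dox and 70.7 ± 1.6 without (interaction 1.05). Among the 13 fibroblast markers 12 were higher, including Postn (periostin) at 1.55, and 9 of the 13 are also members of the matrix and mesenchymal lists above. The part of these markers in the results on these lists was not tested.

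Epithelial genes were split in their interaction. Epithelial adhesion and junction genes were higher at 14 of 23 (60.9%) and lower at 4 (17.4%), against 24.8% and 29.3% of all tested genes. The counts were 8 and 2 by voom, and 7 and 2 with a mean RPKM of at least 5. Median dox changes were 2.26 in siMyc and 1.66 in siControl. Of 31 members 23 were tested. The lower count was 1 without siControl replicate 2 without dox, and 2 without siMyc replicate 1 with dox, either siMyc library without dox, siControl replicate 1 with dox or siControl replicate 1 without dox. Cdh1 (E-cadherin), the adhesion protein of epithelia, was among the lower ones, with 4.97 and 5.12 RPKM in siMyc cells with dox against 0.0348 and 0.00870 without, and 18.3 and 15.7 RPKM in siControl cells with dox against 0.00673 and 0.0106 without. It was present with dox in both arms at different levels (interaction −1.59, SE 0.14, adjusted p = 3.6e-05, and −2.78 by voom on recovered reads). Cdh3 (P-cadherin) was at 1.07, with a fall in siControl (log2 −0.98) and no call in siMyc (log2 0.09). Dsg2, a desmoglein, was at 1.01, and its sign turned under voom (−0.33, adjusted p = 0.82). Of 15 tested keratins, from 18 listed, 7 were higher (46.7%) and 2 lower (13.3%). With a mean RPKM of at least 5, or by voom, 1 was lower. Krt16, a wound and stress keratin of skin, had 806 and 783 RPKM in siMyc cells with dox against 0.0409 and 0 without, and 272 and 241 RPKM in siControl cells with dox against 0.0570 and 0.0469 without (interaction 1.67, SE 0.11, adjusted p = 8.3e-06, and 3.94 by voom). Krt18, a keratin of simple epithelia, rose to 17.9 and 18.2 RPKM in siMyc cells with dox, against 5.63 and 6.39 without, and was at 5.96 and 4.63 RPKM in siControl cells with dox and 5.73 and 6.74 without (interaction 1.65, SE 0.19, adjusted p = 0.00012). The 2 lower keratins were Krt1 and Krt6a, named after their values were seen.

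Genes of the cornified envelope, the outer protein shell of skin cells, were higher at 12 of 26 (46.2%) and lower at 5 (19.2%). The shares of all tested genes were 24.8% and 29.3%. The median of 0.53 was 0.02 by voom, where 5 were higher and 3 lower. With a mean RPKM of at least 5, 7 were higher and 3 lower. Of 42 members 26 were tested, and a gene near 0 without dox could enter through its dox libraries alone. Cdsn (corneodesmosin), which holds cornified cells together, had 77.0 and 71.2 RPKM in siMyc cells with dox against 1.48 and 2.59 without, and 6.91 and 5.45 RPKM in siControl cells with dox against 1.15 and 2.87 without. Both siMyc libraries with dox lay far above the other 6 (interaction 3.34, SE 0.36, adjusted p = 8.3e-05). Cnfn (cornifelin) had 1081 and 978 RPKM in siMyc cells with dox against 0.133 and 0 without, and 165 and 124 RPKM in siControl cells with dox against 0.0205 and 0.0829 without. The interaction of Cnfn was 2.82 (SE 0.19, adjusted p = 6.7e-06), a call lost under voom (adjusted p = 0.067), and the same held for Klk7, a skin protease, at 2.52 (0.054 under voom). Of 10 tested pluripotency genes 5 were lower (50%) and 2 higher (20%), against 29.3% and 24.8% of all tested genes. Low values left 25 of 35 members untested, and with a mean RPKM of at least 5, 3 were lower and none higher. The lower genes included Pou5f1 and Sox2, whose values do not separate introduced from own copies. They also included Cdh1, already counted among the epithelial genes. The higher count was 1 without any single library other than siControl replicate 1 with dox. Dnmt3b, a de novo DNA methyltransferase, averaged 0.379 ± 0.031 RPKM in siMyc cells with dox and 0.286 ± 0.012 without, against 2.41 ± 0.17 in siControl cells with dox and 0.486 ± 0.026 without (interaction −1.10).

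**Figure D4:**
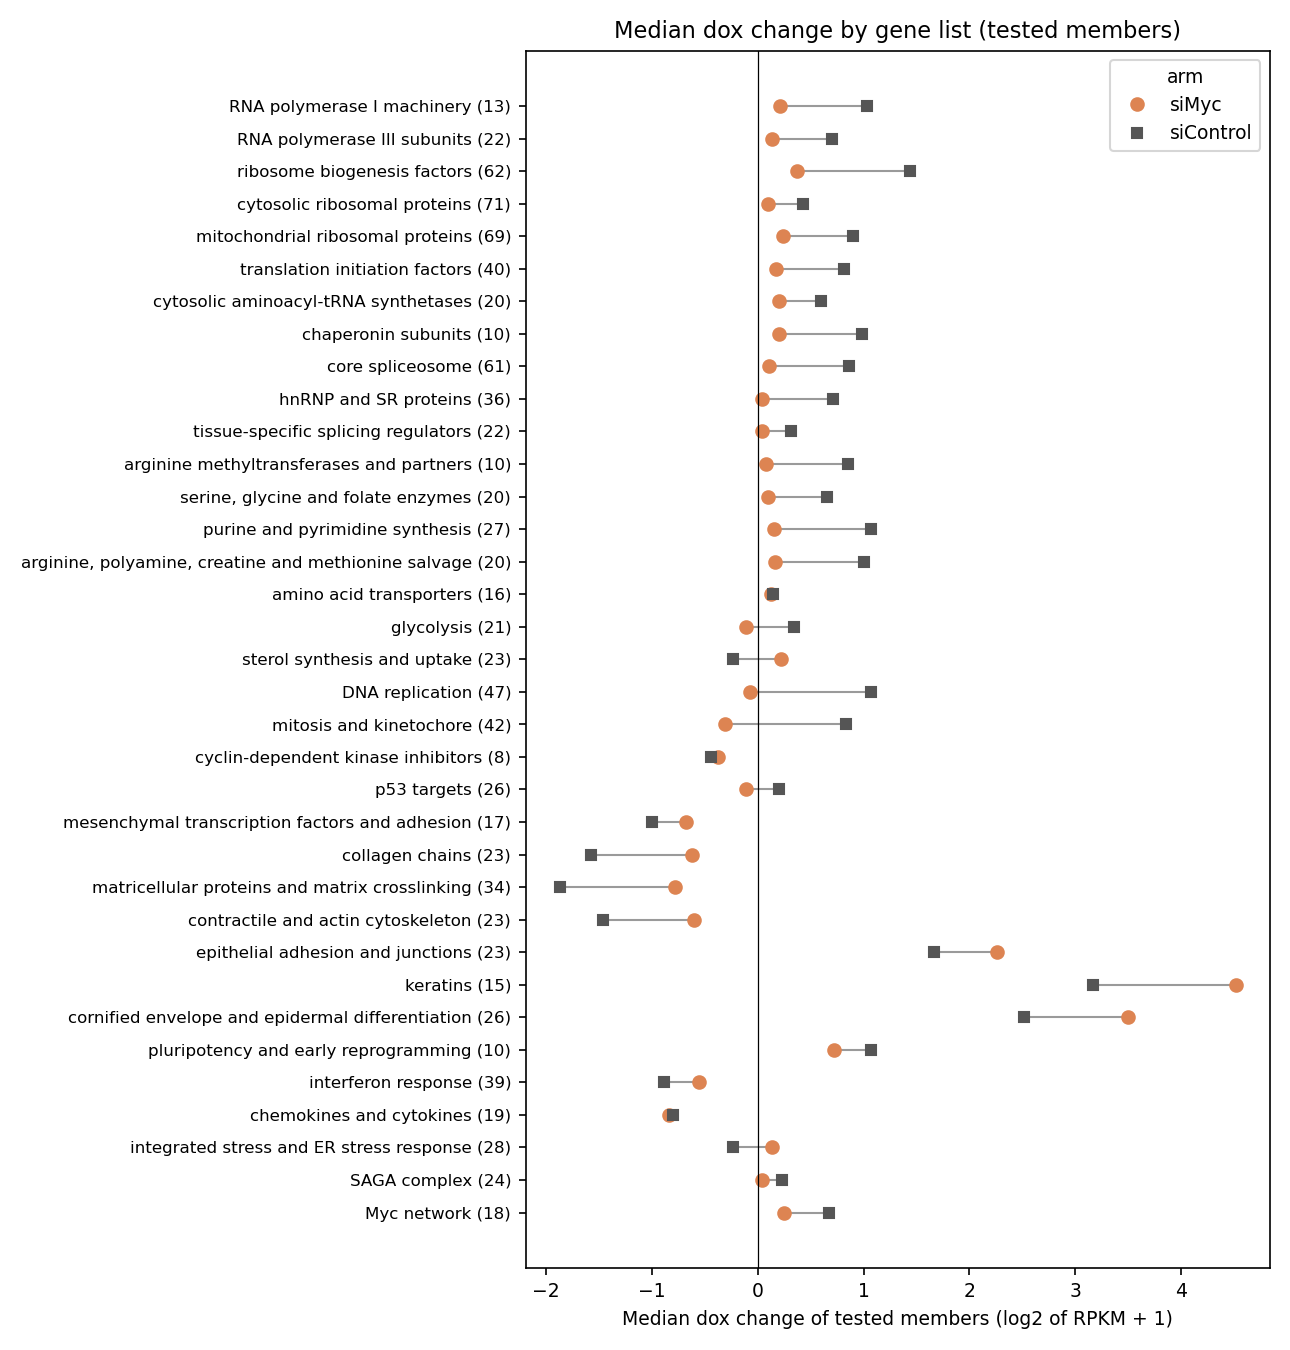
Median dox change (log2 of RPKM + 1) of the tested members of each gene list in siMyc (circles) and siControl (squares), with the number of tested members in brackets. Growth, splicing and cell cycle lists have the siMyc median nearer 0 and below siControl (ribosome biogenesis 0.37 in siMyc and 1.44 in siControl), collagen, matricellular and contractile lists have it nearer 0 and above (collagens −0.62 in siMyc and −1.58 in siControl), and keratins have it farther from 0 (4.52 in siMyc and 3.17 in siControl).

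Metabolism outside the biosynthetic lists was mixed. Over all tested genes 29.3% were lower and 24.8% higher, against 52.4% and 19.0% of glycolysis genes. Of 21 glycolysis genes 11 were lower and 4 higher (median −0.34), with 2 higher without siMyc replicate 1 without dox, siControl replicate 2 with dox or siControl replicate 2 without dox. Ldha, which makes lactate, fell in siMyc, with 291 and 343 RPKM with dox against 383 and 419 without, and rose in siControl, with 945 and 960 RPKM with dox against 546 and 556 without (interaction −1.13, SE 0.16, adjusted p = 0.00032). The lactate transporters Slc16a1 and Slc16a3 went opposite ways, at −1.47 and 0.95. Slc16a1 averaged 7.71 ± 2.9 RPKM in siMyc and 38.1 ± 4.6 in siControl cells with dox, and Slc16a3 averaged 26.9 ± 2.4 RPKM in siMyc and 16.4 ± 1.7 in siControl cells with dox (SD, n = 2 each). Amino acid transporters were lower at 5 of 16 and higher at 5 (31.25% each), near the shares over all tested genes. Their median of −0.04 was above 0 under median-ratio scaling (0.05) and quantile normalization (0.04). Each of these counts was 3 without siMyc replicate 1 with dox, siControl replicate 2 with dox or siControl replicate 1 without dox. The lower count was also 3 without siMyc replicate 2 without dox, and the higher count without siMyc replicate 2 with dox or siMyc replicate 1 without dox. Sterol genes were higher at 5 of 23 (21.7%) and lower at 2 (8.70%), with a median of 0.32. The higher share was thus under the 24.8% of all tested genes. Tm7sf2, a sterol reductase, had the largest interaction of the list at 1.31. None was lower under median-ratio scaling, quantile normalization, or without siMyc replicate 2 without dox, siControl replicate 2 with dox or siControl replicate 1 without dox, and 1 was lower without siMyc replicate 1 of either group or siControl replicate 1 with dox.

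Stress genes were called higher more often than lower. Of 28 integrated stress and ER stress genes 14 were higher and 1 lower (median 0.40), 50% against 24.8% of all tested genes. Nupr1, a small stress-induced chromatin protein, had 291 and 296 RPKM in siMyc cells with dox against 181 and 177 without, and 87.4 and 73.0 RPKM in siControl cells with dox against 210.2 and 208 without. It rose in siMyc and fell in siControl (interaction 2.09, SE 0.12, adjusted p = 3.0e-06). Chac1, which degrades glutathione, and the pseudokinase Trib3 fell in siControl and did not pass in siMyc, at 1.84 and 1.72. Interferon response genes were higher at 10 of 39 and lower at 1, 25.6% against 24.8% of all tested genes, with a median of 0.46 that was 1.18 by voom. Isg15, an interferon-induced ubiquitin-like protein, had 20.1 and 23.5 RPKM in siMyc cells with dox against 49.5 and 72.6 without, and 3.11 and 2.16 RPKM in siControl cells with dox against 32.5 and 39.0 without (interaction 1.92, SE 0.68, adjusted p = 0.035). The call of Isg15 was lost with no filter on low values (adjusted p = 0.083), under voom (0.067) and without any single library other than siMyc replicate 2 without dox (0.052 to 0.106). The number of higher interferon genes was 23 with the 8 libraries alone, 16 with a pseudocount of 0.1, and from 2 to 5 without siControl replicate 1 or 2 of either group, siMyc replicate 1 without dox or either siMyc library with dox. Chemokine and cytokine genes were lower at 3 of 19 and higher at 3 (15.8% each), under the 29.3% and 24.8% of all tested genes.

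Subunits of SAGA, the coactivator complex that holds Gcn5, were lower at 8 of 24 genes and higher at 2 (median −0.19), 33.3% and 8.33% against 29.3% and 24.8% of all tested genes. The higher count was 1 without siMyc replicate 1 with dox, either siMyc library without dox, siControl replicate 1 with dox or either siControl library without dox. Kat2a had 18.1 and 19.4 RPKM in siMyc cells with dox against 17.6 and 16.5 without, and 55.7 and 53.1 RPKM in siControl cells with dox against 23.0 and 20.7 without. It rose in siControl (log2 1.28) and did not pass in siMyc (log2 0.13, adjusted p = 0.51), at an interaction of −1.15 (SE 0.21, adjusted p = 0.0014). Taf5l, a scaffold subunit, was at −1.25. In the Myc network, the partners and rivals of Myc, 8 of 18 genes were lower (44.4%) and 3 higher (16.7%), at a median of −0.36. The higher share was under the 24.8% of all tested genes, and the lower share was above the 29.3%. Of these genes 1 was higher without siMyc replicate 1 of either group or siControl replicate 2 without dox. The ATPases Ruvbl2 and Ruvbl1, which work with Myc, were at −1.50 and −1.39, and Mxi1, which competes for Max, at −1.22.

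Among single genes, the 12 most negative interactions of the naming rule ran from −3.43 to −2.27. Ccnb1ip1, a ubiquitin ligase of meiotic crossovers, had 0.587 and 1.43 RPKM in siMyc cells with dox against 0.0170 and 0.0458 without, and 20.4 and 20.4 RPKM in siControl cells with dox against 0.0591 and 0.0265 without (interaction −3.43, SE 0.24, adjusted p = 1.0e-05). The annexin Anxa10 was at −2.74 (−4.89 by voom), the carbonic anhydrase Car12 at −2.73 and Smpdl3b, a membrane-bound phosphodiesterase, at −2.58. Adap1, an Arf GTPase-activating protein, averaged 6.75 ± 1.4 RPKM in siMyc cells with dox and 0.155 ± 0.079 without, against 39.5 ± 2.7 in siControl cells with dox and 0.113 ± 0.015 without (interaction −2.45). The others among the 12 were Gldc and Shmt1, described above, and Shisa3, B4galnt4, BC048355, Tmprss11bnl and Mreg, between −2.44 and −2.27, of which Shisa3 and Tmprss11bnl were at −6.29 and −6.84 by voom.

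The most positive interactions included secreted and surface proteins. Notum, an enzyme that inactivates Wnt proteins, had 23.0 and 25.6 RPKM in siMyc cells with dox against 0.212 and 0.145 without, and 0.859 and 0.692 RPKM in siControl cells with dox against 0.294 and 0.277 without (interaction 3.96, SE 0.14, adjusted p = 4.6e-07). 4732456N10Rik, a keratin gene that RefSeq lists as Krt90, had 1102 and 1042 RPKM in siMyc cells with dox and was listed at 0 in both siMyc libraries without, against 83.8 and 77.5 RPKM in siControl cells with dox and 0.00586 and 0.0105 without (interaction 3.73, and 6.50 by voom). Edn2, an endothelin, had 95.8 and 98.8 RPKM in siMyc cells with dox against 0.113 and 0.179 without, and 12.0 and 8.06 RPKM in siControl cells with dox against 0.0716 and 0.0643 without (interaction 3.08, SE 0.20, adjusted p = 6.4e-06). All 3 were far higher in siMyc with dox than in any other group. The tetraspanins Cd82 and Tspan15 were at 3.17 and 2.90, the adhesion receptor Gpr133 at 3.16, Ccdc114, a dynein docking protein of cilia, at 3.37, the phosphatase Ppm1j at 3.12 and Fgf3 at 3.09, whose call was lost under voom (adjusted p = 0.054). Bglap2 (osteocalcin 2) was at 3.26, and its reads cannot be told from those of its near-identical copy Bglap.

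Among genes with called dox responses in opposite directions, the 5 with the largest interactions all rose in siMyc and fell in siControl. Pgf, a growth factor of the VEGF family, had 44.2 and 38.8 RPKM in siMyc cells with dox against 8.05 and 6.72 without, and 2.33 and 1.62 RPKM in siControl cells with dox against 3.40 and 3.44 without (interaction 2.92, SE 0.19, adjusted p = 5.8e-06). Adamts2, which trims procollagen, had 32.6 and 34.3 RPKM in siMyc cells with dox against 18.9 and 21.4 without, and 3.66 and 3.41 RPKM in siControl cells with dox against 15.9 and 17.6 without (interaction 2.67, SE 0.21, adjusted p = 2.1e-05). Aplp1, a relative of the amyloid precursor protein, had 75.6 and 74.3 RPKM in siMyc cells with dox against 34.4 and 36.3 without, and 12.5 and 10.2 RPKM in siControl cells with dox against 35.6 and 36.5 without (interaction 2.66). Its levels without dox overlapped between the arms. Wnt9a, a Wnt ligand, and Myl4, an embryonic myosin light chain, were at 2.66 and 2.54.

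Of the marker lists of other cell types, most defining genes were near 0 and a few members were well above it. The endothelial genes Pecam1 and Cdh5 reached at most 0.457 and 0.284 RPKM in any of the 8 libraries, and Cldn5 was at 0 in 7. Summed endothelial markers were at 42.6 and 40.2 RPKM in siMyc cells with dox and 16.04 and 16.5 without, against 15.6 and 16.1 in siControl cells with dox and 11.2 and 10.9 without, and the junction gene Esam was at 2.20. The muscle factors Myod1 and Myog reached 0.0165 and 0.0675 RPKM. Summed skeletal muscle markers were at 268 and 258 RPKM in siMyc cells with dox and 171 and 151 without, against 64.1 and 42.9 in siControl cells with dox and 125 and 98.2 without, nearly all of it Acta1, skeletal alpha-actin. The neural crest factor Sox10 reached 0.378 RPKM, while Tubb3, a neuronal tubulin, ran from 21.4 to 157 and Nes (nestin) from 21.9 to 37.2. Summed neural markers were at 164 and 191 RPKM in siMyc cells with dox and 60.2 and 59.0 without, against 175 and 168 in siControl cells with dox and 59.3 and 56.1 without. The adipocyte gene Adipoq reached 0.0183 RPKM and Lep was at 0 in all 8 libraries, while Lpl, Fabp4, Pparg and Cebpa reached 15.9, 10.7, 9.47 and 7.06. Summed adipocyte markers were at 16.3 and 16.6 RPKM in siMyc cells with dox and 19.0 and 19.5 without, against 28.6 and 28.2 in siControl cells with dox and 21.3 and 18.1 without. The blood gene Ptprc reached 0.123 RPKM, Cd3e was at 0 in all 8 and the macrophage gene Cd68 reached 7.10. Summed blood markers were at 13.4 and 13.1 RPKM in siMyc cells with dox and 6.42 and 7.33 without, against 11.2 and 10.04 in siControl cells with dox and 5.50 and 6.54 without. The part of these markers in the results above was not tested.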

How the data were processed

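RNA-seq of 12 libraries was analysed, 2 in each of 6 groups of siRNA and dox. The authors deposited RPKM per gene and library. Per the submitters' processing notes, the build was mm9 and the tools were Bowtie 0.12.8, TopHat2 2.0.9, HTSeq, edgeR and affy, with no role given. Neither the annotation nor the handling of strand is given in the sources used here, so overlapping and antisense genes are uncertain.

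log2(RPKM + 1) was fitted with limma 3.58.1 (R 4.3.3) on all 12 libraries with 1 mean per group, which share 1 estimate of the spread (6 residual degrees of freedom). Genes with an RPKM of at least 1 in at least 2 libraries entered. The interaction was a contrast of 4 group means, p-values were two-sided and adjusted by Benjamini-Hochberg over 13175 genes, and calls were made under 0.05. Fold changes on this scale understate those of low genes. Steps in the low values gave whole reads for 13174 of the 13175 genes (tolerance 0.05 read), which gave the depths and the voom alternative. Replicates differed by more than sampling noise, so none was a duplicate. The fit was tested on simulated data. Members and lists were chosen with earlier results of these data known. Named genes were 5 fixed genes (Myc, Kat2a, Pou5f1, Sox2, Klf4), the 12 most negative and 12 most positive interactions with a group mean of at least 5 RPKM and all 4 siMyc dox differences beyond those of siControl, the 5 largest with opposite called dox responses, and up to 3 per list. Alternatives changed the pseudocount, filter, scaling, libraries, block or test. Python 3.11.15 was used for summaries and figures.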

Additional observations from a re-analysis of the deposited data

Results flagged for a closer look

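The dox change differed between the siMyc and siControl arms, by the test of the interaction itself, at 3862 genes that were lower in siMyc and 3267 that were higher. The 5 named genes whose dox responses were called in opposite directions in the 2 arms were flagged for the same reason. The interaction was 2.92 for Pgf, 2.67 for Adamts2, 2.66 for Aplp1, 2.66 for Wnt9a and 2.54 for Myl4, and each rose with dox in siMyc and fell in siControl. Groups of 2 libraries are too small to look for an outlying sample.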

How the results depend on the processing

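Counts of called genes stayed within 1.5 times under all 17 alternatives, with 3194 to 3552 lower and 2548 to 3114 higher genes when 1 library was left out. Of 145 named genes 144 were called, 127 of them in every alternative in which they were tested. A gene that a filter removed was not counted as lost there. In 1 case, Dsg2, the sign turned, at −0.33 under voom. The median interaction of genes up with dox in siGcn5 was −0.54 with a pseudocount of 0.1, −0.55 with a mean RPKM of at least 5, −0.40 with median-ratio scaling, −0.47 with quantile normalization and −0.56 under voom, and it ran from −0.51 to −0.46 when 1 library was left out. That of genes down with dox in siGcn5 was 0.50 with a pseudocount of 0.1, 0.44 with a mean RPKM of at least 5, 0.46 with median-ratio scaling and 0.50 under voom, and from 0.34 to 0.43 when 1 library was left out. The cause of these moves was not tested. No blood marker was left with a mean RPKM of at least 5, so that list has no median there.

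With the replicate number as a replicate block, 4406 genes were lower and 3881 higher. List counts moved for cytosolic ribosomal proteins (54 lower, against 26), sterol genes (13 higher, against 5), chemokines (5 lower, against 3) and stress genes (3 lower, against 1). Against 0 without the block, 1 kinase inhibitor was lower. In the mitochondrial ribosomal protein, arginine methyltransferase and adipocyte lists 1 gene each was higher, against 0. In the serine, glycine and folate list and the arginine and polyamine list 2 genes each were higher, against 1. Deviations of same-numbered libraries correlated positively in all 6 pairs of groups, at 0.19 to 0.49, a hint from the data that numbers tie libraries together. The labels name no shared batch and there are 2 numbers, so the fit without the block was kept. Depth differed most within siMyc with dox, and thinning all libraries to the shallowest left 3793 lower and 3197 higher genes.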
